A study of Homo sapiens with 12 samples.

Results

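The comparison described here asked what the AKT inhibitor ipatasertib changed in C4.2B prostate cancer cells that were already held in the EZH2 inhibitor tazemetostat. It set the 3 combination libraries against the 3 libraries of tazemetostat alone, 6 of the 12 libraries of the study. The genes described were all those that passed an expression filter, 16646 of the 58735 genes counted.

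RNA sequencing was performed on polyA RNA from C4.2B, a castration-resistant human prostate cancer line of the LNCaP lineage, in which PI3K/AKT signaling is active. In the EZH2i arm, cells received tazemetostat at 1 μM for 6 days and then for another 24 hours, without ipatasertib. In the combination arm, cells had the same 6 days of tazemetostat and then 24 hours of tazemetostat at 1 μM with ipatasertib at 0.25 μM. The 2 further arms, DMSO vehicle and ipatasertib at 0.25 μM for 24 hours (AKTi), never received tazemetostat and serve here to show what the same AKT inhibitor did without it. All 4 arms were moved to medium with charcoal-stripped FBS, which is depleted of steroid hormones, for the last 24 hours. The 3 libraries of an arm came from plates of this 1 cell line, so p-values measure the spread between plates and not between tumors.

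AKT is the kinase that carries the signal of growth factor receptors and PI3K to cell growth. It phosphorylates the FOXO transcription factors and keeps them out of the nucleus, and through the kinase complex mTORC1 it promotes the activity of SREBP factors, which drive sterol and fatty acid synthesis, and the translation of ATF4, which drives amino acid supply. ATF4 is also translated when the kinases of the integrated stress response phosphorylate the initiation factor eIF2α. EZH2 is the catalytic subunit of Polycomb repressive complex 2 (PRC2), which places the repressive mark H3K27me3. In prostate cells, AKT and androgen signaling are known to restrain each other.

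Library totals ran from 14560651 to 21021563 counts in EZH2i and from 15273647 to 18793827 in the combination. Mitochondrial genes took 4.35% to 5.31% of the counts in EZH2i and 5.14% to 5.64% in the combination. As a check of the labelled cell type, the 12 luminal prostate markers all passed the filter. They summed to between 8477 and 8872 CPM (read counts scaled to a common library total) in the EZH2i libraries and to between 11455 and 11626 in the combination libraries. Of 15 markers of basal epithelium, fibroblasts, endothelium and leukocytes, 11 were too low to test, and KRT5 and CD3E had no count in any library. The basal markers KRT14 and TP63 had at most 7 counts in a library. The fibroblast markers summed to 50.1 to 53.3 CPM in EZH2i and 63.1 to 63.6 CPM in the combination, nearly all of it VIM and COL1A1, while the fibroblast markers COL1A2, DCN and LUM were too low to test. The part of the mitochondrial and marker shares in the results below was not tested.

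Ipatasertib was followed by broad changes in these cells. By edgeR's quasi-likelihood test with Benjamini-Hochberg adjustment at 0.05, 7810 of the 16646 genes (46.9%) differed between the combination and EZH2i, with 3535 higher (21.2%) and 4275 lower (25.7%). The combination and EZH2i libraries did not overlap, in 1 direction or the other, for 8913 tested genes (53.5%). Most differences were small. Over the whole set of tested genes the log2 fold change had a median of -0.01 and quartiles of -0.31 and 0.32. A log2 fold change of at least 1 was reached by 658 of the higher genes and 699 of the lower genes, and a log2 fold change of at least 2 by 85 and 173 genes. Counts are scaled to the library, so each value below is relative to the other genes of the cell. In bulk RNA, fewer cells of a state and less RNA per cell cannot be told apart.

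**Figure D1:**
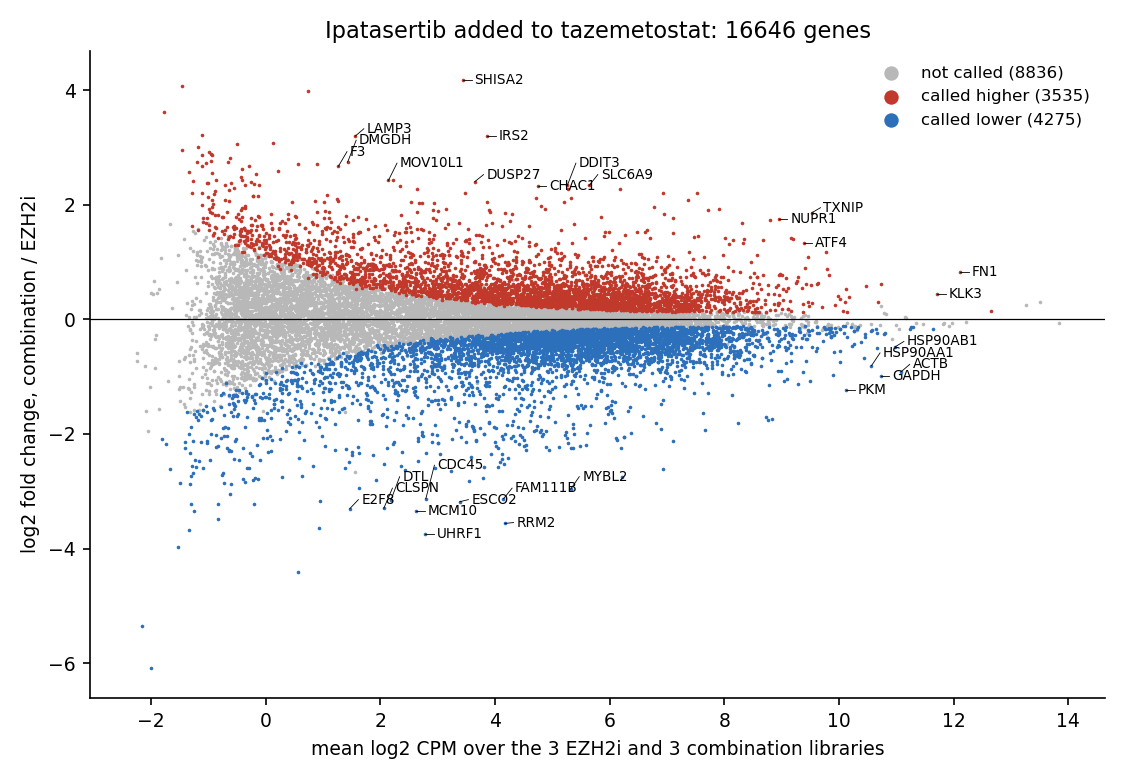
Log2 fold change of the combination against EZH2i (vertical axis) against the mean log2 CPM over the 6 libraries (horizontal axis) for the 16646 tested genes, colored by edgeR call. To the right of a mean log2 CPM of 1, UHRF1 and RRM2 sit at the lower edge at -3.75 and -3.56 and SHISA2 and IRS2 at the upper edge at 4.17 and 3.21, and the abundant transcripts ACTB, GAPDH and PKM lie below 0 on the right.

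Among protein-coding genes with a mean log2 CPM of at least 1, those that fell most are mainly genes of DNA replication and the cell cycle. The 10 with the smallest log2 fold changes were UHRF1, RRM2, MCM10, E2F8, CLSPN, ESCO2, DTL, FAM111B, CDC45 and MYBL2, at -3.75 to -2.96. UHRF1, which recruits the maintenance DNA methyltransferase to newly copied DNA, lies at chr19:4903080-4962154 on the plus strand (hg38). Its level was 24.2, 26.7 and 22.4 CPM in the EZH2i libraries and 1.88, 1.61 and 1.93 CPM in the combination libraries, a log2 fold change of -3.75 ± 0.13 (SE, edgeR adjusted p = 3.34e-32). RRM2, the small subunit of ribonucleotide reductase, which supplies deoxynucleotides, measured 54.8, 65.3 and 63.6 CPM in EZH2i and 4.97, 5.36 and 5.26 CPM in the combination. Every combination library of both genes lay more than 10 CPM below every EZH2i library. MYBL2, a transcription factor of proliferating cells, was the most abundant of the 10, at 114, 109 and 109.7 CPM in EZH2i and 13.4, 15.3 and 14.0 CPM in the combination.

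The genes of this abundance that rose most were of several kinds. SHISA2, which encodes a membrane protein that retains Wnt and FGF receptors in the endoplasmic reticulum, gave 2.14, 2.86 and 2.48 CPM in EZH2i and 48.4, 41.5 and 46.2 CPM in the combination. IRS2, the docking protein that couples the insulin and IGF1 receptors to PI3K, gave 4.75, 4.03 and 5.37 CPM in EZH2i and 43.5, 45.4 and 43.0 CPM in the combination (log2 fold change 3.21 ± 0.13, SE). The 8 others with the largest log2 fold changes were LAMP3 (3.20), DMGDH (2.74), F3 (2.67), MOV10L1 (2.42), DUSP27 (2.40), DDIT3 (2.34), SLC6A9 (2.34) and CHAC1 (2.33). F3, the coagulation initiator tissue factor, had no count in DMSO or AKTi libraries and 4.92, 6.52 and 5.62 CPM in the combination. DDIT3 (CHOP), SLC6A9 (a glycine transporter) and CHAC1 (a glutathione-degrading enzyme) are ATF4 targets.

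Ranked by the change in CPM, the losses lay in transcripts of the cytoskeleton, glycolysis and chaperones. The 5 genes with the largest loss of mean CPM were ACTB, GAPDH, PKM, HSP90AA1 and HSP90AB1. GAPDH, often used as a reference gene, went from 2409, 2363 and 2382 CPM to 1250.2, 1210.0 and 1150.3 CPM, and ACTB, also used as a reference gene, from 2994, 2952 and 3010 CPM to 1641, 1621 and 1485 CPM. The 5 genes with the largest gain were FN1, KLK3, TXNIP, ATF4 and NUPR1. FN1, which encodes fibronectin, went from 3182, 3362 and 3418 CPM to 5975, 5856 and 5867 CPM.

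Lists of genes were written from memory, with earlier results of these data known, for pathways that AKT controls and for other programs and cell types. The lists share some genes, with 773 entries for 752 different genes, so they are not separate groups. IRS2, INSR and ERBB3 are on both the receptor and adaptor list and the FOXO list. PIK3IP1 and RICTOR are on both the AKT pathway list and the FOXO list. The tested members of each list are described by how many were called higher or lower and by their median. These are to be read against 21.2% higher, 25.7% lower and a median of -0.01 over all tested genes.

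**Figure D2:**
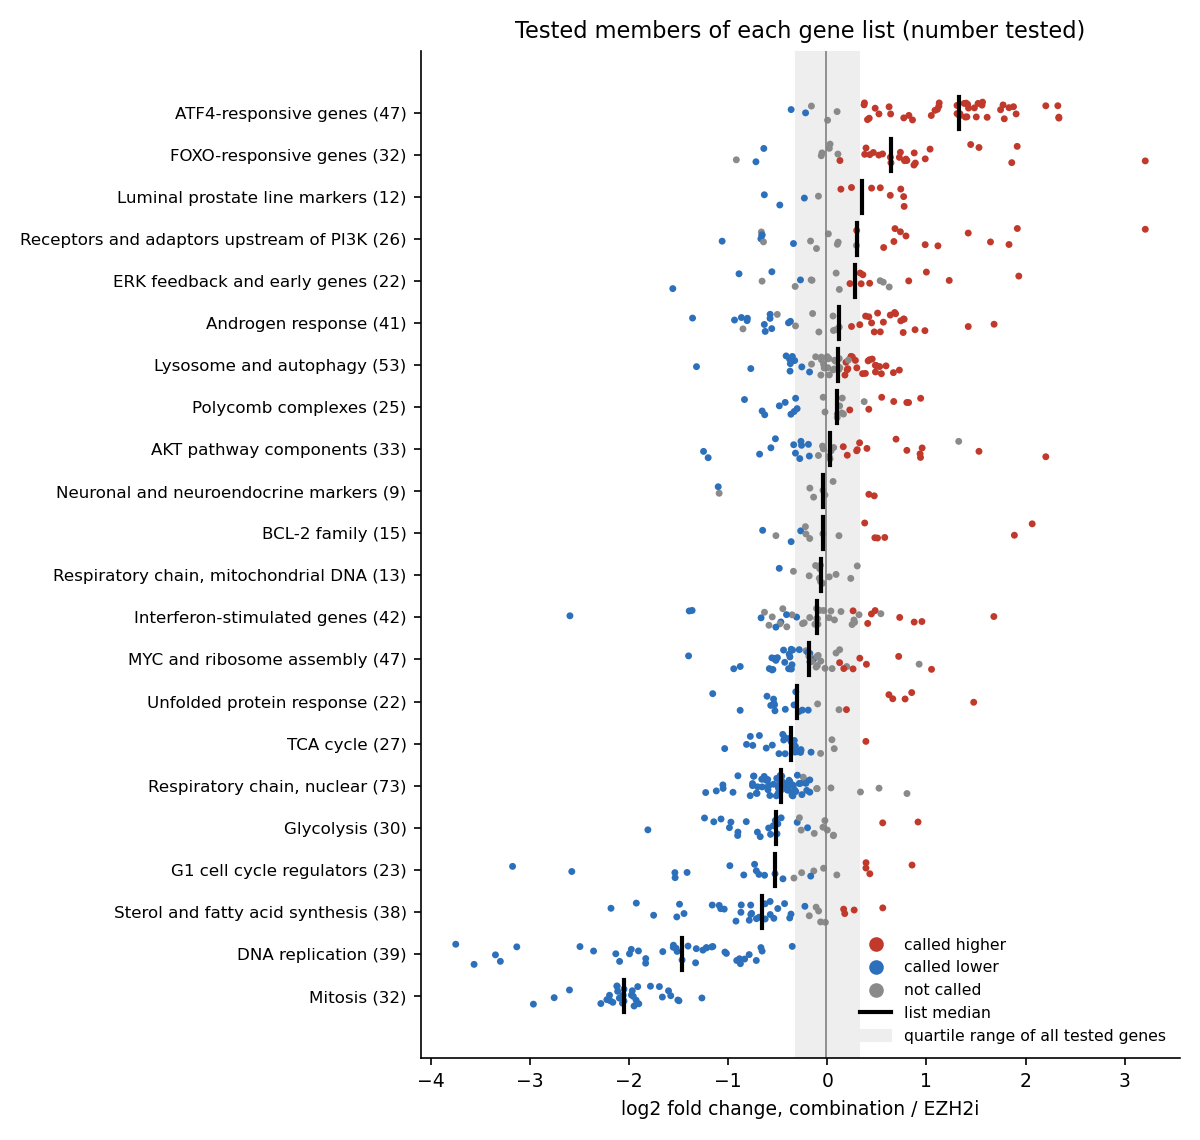
Log2 fold change of the combination against EZH2i for the tested members of 22 gene lists, ordered by list median (black bars), with points colored by edgeR call and the grey band marking the quartiles of all tested genes, -0.31 to 0.32. ATF4-responsive and FOXO-responsive genes sit at the top with medians of 1.33 and 0.64, and DNA replication and mitosis at the bottom with medians of -1.46 and -2.05.

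Among the transcripts of the inhibited enzymes, AKT1 fell from 169.9, 151 and 167 CPM to 121, 112 and 105 CPM (log2 fold change -0.52 ± 0.06, SE) and AKT2 from 194, 178 and 181 CPM to 165, 163 and 157 CPM (-0.19 ± 0.05, SE). Of 33 tested components of the AKT pathway, 13 were higher and 12 lower, with a median of 0.03. Among the 19 kinases and subunits 5 were higher and 10 lower, and among the 14 inhibitors and phosphatases 8 were higher and 2 lower. The inhibitors that rose were TRIB3 (2.20), PIK3IP1 (1.53), EIF4EBP1 (0.96), DDIT4 (0.94), INPP4B (0.94), TSC1 (0.33), PHLPP1 (0.30) and PHLPP2 (0.30), of which PHLPP2 was not called without EZH2i replicate A (0.22) or combination replicate A (0.26). PIK3IP1, a membrane inhibitor of PI3K, went from 41.7, 30.5 and 34.9 CPM to 101, 100.3 and 107 CPM. PIK3R3, a regulatory subunit of PI3K, fell from 231, 228 and 253 CPM to 107, 105 and 98.4 CPM, and the AKT-related kinase SGK1 fell by 1.25 on the log2 scale.

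Receptors and adaptors upstream of PI3K rose more often than they fell. Of 26 tested, 13 were higher and 5 lower, with a median of 0.30. The adaptors accounted for much of this, with 7 of 8 higher: IRS2 (3.21), IRS4 (1.83), GAB2 (1.65), IRS1 (1.42), GAB1 (1.12), GRB7 (0.67) and GRB10 (0.57). IRS1 gave 32.1, 26.2 and 28.4 CPM in EZH2i and 75.5, 80.8 and 75.7 CPM in the combination. IRS4 did not exceed 2.84 CPM in any of the 6 libraries. Among the 18 receptors 6 were higher and 4 lower. ERBB3, the kinase-impaired partner of HER2 that binds PI3K directly, rose from 285, 295 and 303 CPM to 502, 486 and 485 CPM, and INSR and IGF1R rose by log2 fold changes of 0.79 and 0.68. FGFR2 rose from 3.88, 4.85 and 4.69 CPM to 16.8, 17.2 and 17.0 CPM. ERBB2, at 316, 299 and 299 CPM and 315, 315 and 289.9 CPM, was not called. The number of receptors and adaptors called lower was 3 without EZH2i replicate A or C or combination replicate C, and 2 without combination replicate B.

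FOXO-responsive genes rose as a group. Of 32 tested, 24 were higher and 2 lower, with a median of 0.64. The factors themselves were included, and FOXO4 (1.04), FOXO1 (0.87) and FOXO3 (0.78) were higher while FOXO6 (-0.72) was lower. Feedback genes of the insulin pathway were higher in 7 of 9 cases, cell cycle and death genes in 9 of 11, and genes of metabolism and protein turnover in 5 of 8. TXNIP, which restrains glucose uptake, rose from 374, 387 and 402 CPM to 1451, 1369 and 1406 CPM (log2 fold change 1.86 ± 0.05, SE). FBXO32 (atrogin-1), a ubiquitin ligase adaptor, rose from 7.63, 7.07 and 8.18 CPM to 32.1, 25.8 and 28.6 CPM. KLHL24 (1.45), MXI1 (0.99), BCL6 (0.89) and KLF6 (0.88) were also higher. The cyclin-dependent kinase inhibitor CDKN1B, a well-known FOXO target, rose from 81.0, 83.2 and 79.6 CPM to 105, 108 and 106 CPM. The 2 members that fell were FOXO6 and TNFSF10 (TRAIL, -0.64).

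Promoters of FOXO-responsive genes were searched on both strands for the letters GTAAACA, to which FOXO factors are known to bind. RefSeq promoter windows (GRCh38.p14, 250 bases before to 50 bases after an annotated start) were found for 28 of the 32 tested members, and 7 of their 45 windows (15.6%) held the motif, compared with 2.64% of the 15662 windows of tested protein-coding genes. By call, the share varied far less, at 3.56% of windows of genes called higher, 2.01% called lower and 2.57% not called. TXNIP and MXI1 are shown because they were the most strongly changed members with the motif upstream of the start. The motif is in capitals, and each stretch is read 5′ to 3′ on the strand of the gene. The stretches lie at chr1:145996672-145996728 (minus strand) and chr10:110210055-110210111 (plus strand), with the motif starting 124 and 151 bases before the start.
TXNIP: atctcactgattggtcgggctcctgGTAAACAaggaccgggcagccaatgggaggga
MXI1: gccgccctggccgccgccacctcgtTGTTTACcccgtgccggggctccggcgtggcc

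The list with the highest median was the ATF4 program. Of 47 ATF4-responsive genes tested, 42 were higher and 2 lower, with a median of 1.33. ATF4 itself (chr22:39519695-39522685, plus strand) went from 422, 411 and 430.5 CPM in EZH2i to 1089, 1079 and 1028 CPM in the combination, a log2 fold change of 1.34 ± 0.05 (SE). Every class of the list took part: 10 of 11 factors, 9 of 9 amino acid transporters, 8 of 8 aminoacyl-tRNA synthetases, 9 of 13 enzymes of amino acid synthesis and folate metabolism, and 6 of 6 secreted and other genes were higher.

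Among the factors, DDIT3 rose from 14.6, 16.9 and 19.4 CPM to 87.7, 85.3 and 86.3 CPM. TRIB3, a pseudokinase that binds AKT, rose from 59.5, 47.7 and 62.7 CPM to 271, 263 and 251 CPM, and ATF3, a stress-induced partner, from 29.9, 29.0 and 34.3 CPM to 109, 112 and 102 CPM. CHAC1 rose from 13.5, 10.6 and 11.7 CPM to 59.3, 61.9 and 57.6 CPM. For each of these 4 genes the combination libraries lay far above the EZH2i libraries, with no overlap.

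Amino acid transporters rose in step. SLC7A11, the cystine importer, went from 97.6, 116 and 114 CPM to 407, 388 and 433 CPM. SLC7A5, the leucine importer, went from 172, 144 and 158 CPM to 432, 441 and 389.7 CPM. SLC1A5 (1.83), SLC7A1 (1.38), SLC3A2 (1.31) and SLC1A4 (1.31) also rose.

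The synthesis enzymes rose less evenly. ASNS, asparagine synthetase, went from 8.44, 7.66 and 7.40 CPM to 28.9, 31.6 and 25.5 CPM, and the serine pathway enzyme PSAT1 from 185, 212 and 202 CPM to 535, 522 and 534 CPM. PHGDH, which opens serine synthesis, rose by a log2 fold change of 0.77. GOT1 (-0.36) and ALDH18A1 (-0.22) fell, and CBS and PYCR1 were not called. Among the factors of the list, ATF5 was not called, although it was called lower without AKTi replicate A (-0.19), EZH2i replicate A (-0.23) or combination replicate A (-0.26). The alanyl-tRNA synthetase gene AARS rose from 353, 347 and 381 CPM to 989, 929.9 and 938 CPM. Of the secreted products, VEGFA rose from 61.9, 53.4 and 60.3 CPM to 175, 171 and 175 CPM, STC2 from 71.7, 71.6 and 78.6 CPM to 255, 256 and 249 CPM, and GDF15 by a log2 fold change of 1.33.

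**Figure D3:**
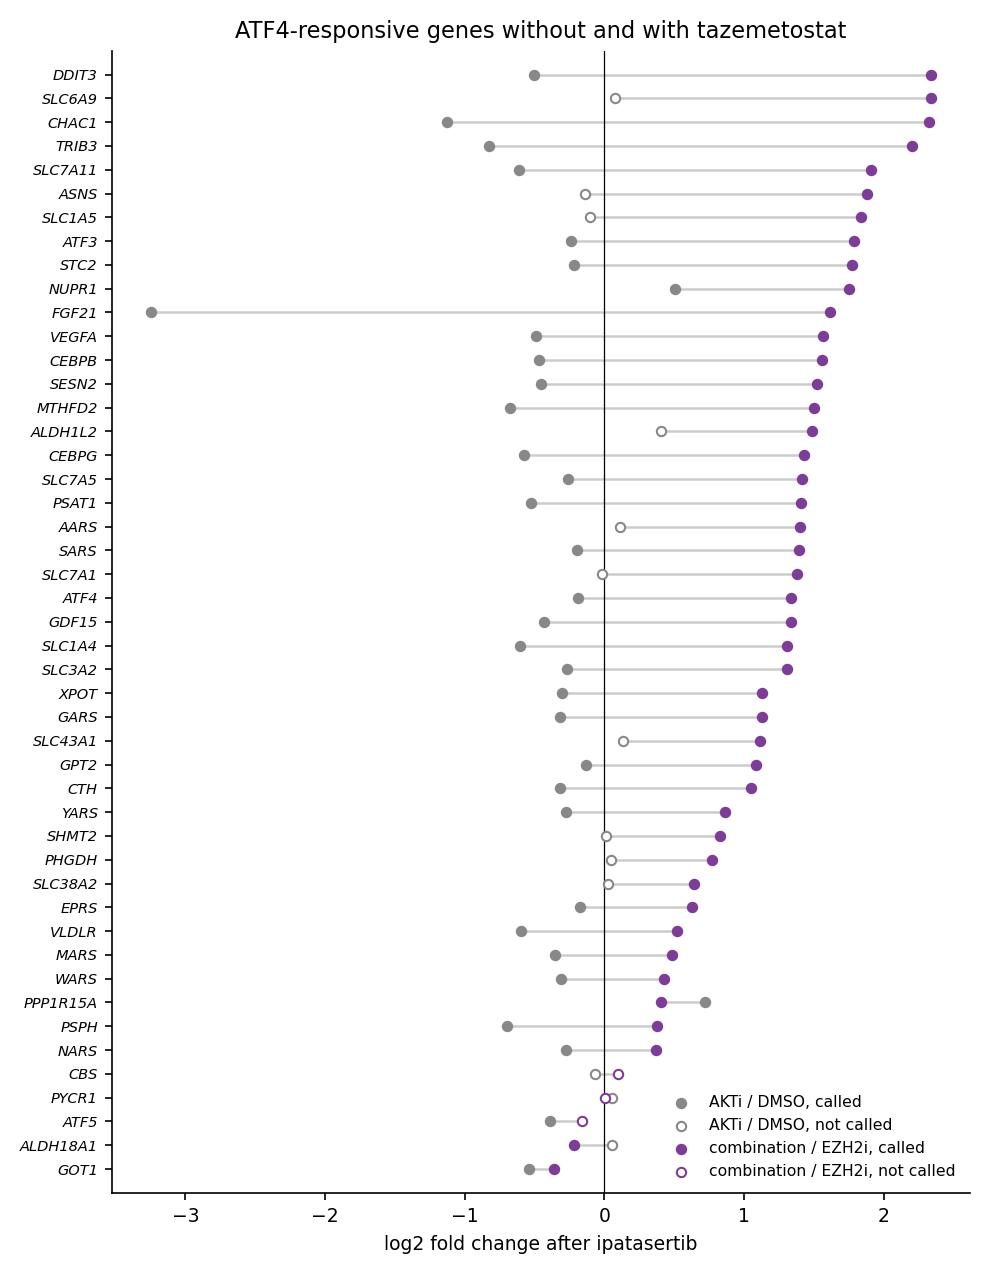
Log2 fold change after ipatasertib for the 47 tested ATF4-responsive genes, without tazemetostat (grey, AKTi against DMSO) and with it (purple, combination against EZH2i), with filled points for genes called by edgeR. Of the purple points 42 are called higher, whereas of the grey points 32 are called lower and 2 higher. FGF21 had at most 1.62 CPM on average in any arm.

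ATF4 and C/EBP factors bind together at composite elements with the letters TGATGNAA. In RefSeq windows of 35 list members, 12 of 54 (22.2%) held these letters on either strand, compared with 1.99% of the windows of all tested protein-coding genes. The share by call was 2.50% of windows of genes called higher, 1.69% called lower and 1.92% not called. CHAC1 and ASNS are shown as the most strongly changed members with the motif upstream of a start. The stretches lie at chr15:40953251-40953280 (plus strand) and chr7:97872458-97872487 (minus strand), and overlap annotated exons, so 30 bases of each are given, with the motif in capitals, and on CHAC1 it is on the opposite strand.
CHAC1: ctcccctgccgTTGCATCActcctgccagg
ASNS: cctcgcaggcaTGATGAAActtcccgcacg

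Genes of the unfolded protein response split. Of 22 tested, 6 were higher and 14 lower, with a median of -0.30. The chaperone HSPA5 (BiP), the usual mark of that response, fell from 1140, 1195 and 1202 CPM to 824, 786 and 774 CPM, and SDF2L1 (-1.16) and MANF (-0.88) fell further. The sensors ERN1 (1.48) and ATF6 (0.66) rose, with ERN1 going from 46.8, 45.6 and 46.4 CPM to 127, 130.0 and 130.0 CPM. HERPUD1 (0.85), SEL1L (0.79), DNAJB9 (0.62) and EDEM1 (0.19), which serve the folding or disposal of misfolded proteins, were the others that rose. EDEM1 was not called without EZH2i replicate A (0.14) or with all genes of at least 1 count kept (0.17).

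Sterol and fatty acid synthesis fell. Of 38 genes tested, 29 were lower and 4 higher, with a median of -0.66. INSIG1, the feedback protein of the pathway, fell from 111, 116 and 111 CPM to 44.5, 39.3 and 40.3 CPM. STARD4 (-1.93), FADS2 (-1.75), EBP (-1.52) and ELOVL6 (-1.49) fell too. Of the sterol enzymes 16 of 20 were lower and of the fatty acid enzymes 8 of 11. FASN, fatty acid synthase, fell from 1118, 989.8 and 1048 CPM to 503, 525 and 470.5 CPM. SREBF1 fell by 0.87 on the log2 scale. TM7SF2 (0.56), INSIG2 (0.27), SC5D (0.18) and ELOVL5 (0.17) were the members that rose. The SREBP site TCACCCCAC was in 1 of the 42 windows (2.38%) of this list, that of SREBF2, and in 0.370% of windows of all tested protein-coding genes. Without EZH2i replicate A, INSIG2 (0.21), SC5D (0.12) and ELOVL5 (0.11) were not called. INSIG2 was also lost without combination replicate A (0.22), and SC5D without AKTi replicate A (0.14), EZH2i replicate C (0.15) or combination replicate C (0.12). With all genes of at least 1 count kept, SC5D (0.15) and ELOVL5 (0.14) were not called.

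Most nuclear genes of energy metabolism fell. Of 30 tested glycolysis genes, 20 were lower and 2 higher, with a median of -0.52, and of the 18 enzymes 16 were lower and none higher. LDHA fell from 553, 588 and 550.2 CPM to 172, 146 and 164 CPM, PKM from 1727, 1670 and 1743 CPM to 743, 741 and 695 CPM, and PGK1 from 643, 657 and 653 CPM to 304, 294 and 285 CPM. The lactate exporter SLC16A1 (0.92) and the pyruvate dehydrogenase kinase PDK2 (0.56) were the members that rose. Of 27 TCA cycle genes, 23 were lower and 1 higher, with a median of -0.36, led by IDH2 (-1.03), MDH1 (-0.81) and DLAT (-0.78). Of 73 nuclear genes of the respiratory chain, 65 were lower and none higher, with a median of -0.47. They included 30 of 38 subunits of complex I, 10 of 10 of complex III with cytochrome c, 10 of 10 of complex IV and 15 of 15 of complex V. Of the 13 mRNAs of mitochondrial DNA, which are copied by a separate polymerase, MT-ND6 was lower (-0.48) and the others were not called, with a median of -0.07. The call of MT-ND6 was lost without EZH2i replicate A (-0.50) or B (-0.43) and without combination replicate A (-0.51), B (-0.49) or C (-0.46), and with upper-quartile scaling (-0.42). With the replicate letter as a block, MT-ND1 (0.24) and MT-CO1 (0.31) were called higher and MT-ND5 (-0.34) lower, and the same calls were made from the 6 libraries alone (0.26, 0.32 and -0.32) and without DMSO replicate B (0.24, 0.31 and -0.33).

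MYC mRNA rose while most listed nucleolar factors of ribosome assembly fell. MYC protein was not measured here. MYC rose from 94.3, 89.8 and 102 CPM to 207, 195 and 192 CPM (log2 fold change 1.05 ± 0.06, SE). Of 36 nucleolar factors of ribosome assembly, 22 were lower and 5 higher, with a median of -0.32, including NOP58 (-0.88), LYAR (-0.94) and NOP56 (-0.58). AKTi alone lowered 25 of the 36 nucleolar factors and raised 1, with a median of -0.28. The interaction was positive for 8 and negative for 5 of them, with a median of -0.04. For the MYC network and these factors together, 25 of 47 were lower and 7 higher in the combination. The E-box CACGTG, which MYC and its partners bind, was in 17 of the 53 windows (32.1%) found for 40 members and in 9.39% of windows of all tested protein-coding genes. Its share hardly varied with the call, at 9.76% of windows of genes called lower, 9.60% called higher and 9.05% not called.

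Proliferation genes fell throughout. All 39 tested DNA replication genes were lower, with a median of -1.46 and a range of -3.75 to -0.35, and all 32 tested mitotic genes were lower, with a median of -2.05 and a range of -2.96 to -1.26. The proliferation marker MKI67 fell from 131, 144 and 147 CPM to 33.7, 34.0 and 33.0 CPM. CDK1, the kinase that starts mitosis, fell from 184, 209 and 183 CPM to 27.6, 29.6 and 28.3 CPM, and CCNB1, its cyclin, from 233, 233 and 227 CPM to 64.8, 59.6 and 59.8 CPM. PCNA, the sliding clamp of the polymerases, fell from 107, 109 and 96.6 CPM to 36.2, 32.0 and 38.4 CPM. The combination libraries of these 4 genes were all below the EZH2i libraries. Libraries of the arms did not overlap, in 1 direction or the other, for 53.5% of all tested genes.

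The G1 machinery fell to different degrees. Of 11 cyclins and kinases, 10 were lower and none higher. E2F2 (-3.17) and E2F1 (-2.58) fell most, with E2F1 going from 34.6, 33.1 and 33.9 CPM to 5.63, 5.71 and 5.68 CPM. CDK2 fell by 1.53 and CCND1, cyclin D1, by 0.63 on the log2 scale, the latter from 384, 373 and 373 CPM to 242, 248 and 239 CPM. The inhibitors CDKN1C (0.86), CDKN1A (0.39), CDKN1B (0.39) and the pocket protein RBL2 (0.43) rose, whereas CDKN2C (-1.54), RBL1 (-0.69), E2F4 (-0.53) and RB1 (-0.17) fell. RB1 was the least stable of these calls, and was lost by DESeq2 (-0.17), with library size (-0.11) or upper-quartile scaling (-0.10), with at least 10 counts in every library (-0.13), from the 6 libraries alone (-0.14) and without AKTi replicate B (-0.16) or C (-0.16), DMSO replicate B (-0.16), EZH2i replicate B (-0.10) or C (-0.14) or combination replicate B (-0.12).

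The E2F site TTTGGCGC was in 7 of 46 windows (15.2%) of 35 DNA replication genes, in 1.39% of windows of genes called lower, in 0.712% of windows of genes called higher and in 0.848% of windows of genes not called. MCM6, a subunit of the replicative helicase, and GMNN, which restrains origin licensing, are shown as the members with the largest change that hold it upstream. Their log2 fold changes were -0.88 and -0.83. The stretches lie at chr2:135876563-135876620 (minus strand) and chr6:24775308-24775365 (plus strand), with the motif in capitals.
MCM6: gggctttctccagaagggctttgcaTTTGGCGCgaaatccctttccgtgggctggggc
GMNN: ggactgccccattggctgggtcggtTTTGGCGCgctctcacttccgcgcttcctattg

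Androgen-responsive genes did not move as a block. Of 41 tested, 20 were higher and 12 lower, with a median of 0.12. Luminal targets rose, with ACPP (prostatic acid phosphatase) going from 331, 354 and 361 CPM to 962, 896 and 943 CPM, TMPRSS2 from 381, 406 and 387 CPM to 660.1, 676 and 668 CPM and KLK3 (prostate-specific antigen) from 2759, 3007 and 2906 CPM to 3961, 3980.4 and 3881 CPM. FKBP5, another classical target, fell from 81.4, 91.0 and 91.0 CPM to 49.7, 52.5 and 48.4 CPM, and the induced genes PLPP1 (-0.87) and EAF2 (-0.81) fell too. Of the 7 genes repressed by androgen, 3 were higher, OPRK1 (0.89), FOLH1 (0.54) and DDC (0.47), and UGT2B15 (-0.94) was lower. Of the 29 genes that androgen induces, 14 were higher and 10 lower. The glucocorticoid receptor gene NR3C1 was called higher (1.68) but did not exceed 3.69 CPM in any of the 6 libraries, and it was not called without EZH2i replicate A (1.31), EZH2i replicate C (1.37) or combination replicate C (1.10).

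Within the BCL-2 family it was the BH3-only class, whose proteins neutralise prosurvival members, that rose. Of 8 BH3-only genes tested, 6 were higher and none lower: HRK (2.07), BBC3 (PUMA, 1.89), PMAIP1 (NOXA, 0.58), BIK (0.51), BMF (0.48) and BCL2L11 (BIM, 0.38). PMAIP1 was not called without combination replicate A (0.41). The other two, BID (-0.21) and BAD (-0.22), were not called, but BID was called lower without AKTi replicate A (-0.25), DMSO replicate C (-0.22), EZH2i replicate A (-0.26) or B (-0.26) or combination replicate B (-0.26), and BAD without AKTi replicate A (-0.25). BBC3 went from 4.69, 3.33 and 4.46 CPM to 17.0, 16.7 and 12.4 CPM, and HRK from 0.937, 0.935 and 0.597 CPM to 3.24, 3.57 and 3.44 CPM. BMF, at 52.8, 57.3 and 59.8 CPM and then 78.5, 81.2 and 77.7 CPM, was the most abundant of these. Of 4 prosurvival genes, MCL1 (-0.36) and BCL2L1 (BCL-XL, -0.27) were lower, and of 3 effectors BAK1 (-0.65) was lower. The number of family members called lower went from 3 to 6 without AKTi replicate A, with BCL2L2, BID and BAD added, and to 5 without DMSO replicate C or EZH2i replicate A, with BCL2L2 and BID added.

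Of 53 lysosome and autophagy genes tested, 22 were higher and 10 lower, with a median of 0.11. Autophagy genes were higher in 10 of 20 cases, led by GABARAPL1 (0.73), MAP1LC3B (0.55), ULK2 (0.49) and NBR1 (0.49), and the mTORC1-regulating GTPase RRAGD rose by 0.67. The lysosomal α-galactosidase gene GLA (-1.32) fell most. The proton pump subunits ATP6V1B2 (-0.41), ATP6V1A (-0.38) and ATP6V0D1 (-0.37) were also lower.

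Genes of ERK feedback and immediate early genes were mixed, with 9 of 22 higher and 4 lower. The immediate early gene FOS rose most (1.93), from 0.201, 0.292 and 0.0919 CPM to 0.963, 0.634 and 0.604 CPM, and was not called with all genes of at least 1 count kept (1.89) or without EZH2i replicate C (1.56) or combination replicate A (1.67). DUSP4 (1.23) and KLF4 (1.00) rose and DUSP5 (-1.56) and DUSP2 (-0.89) fell, while DUSP6, SPRY4 and EGR1, the usual ERK readouts, reached at most 1.74 CPM in the 6 libraries and were not called. Interferon-stimulated genes showed no common direction, with 8 of 42 higher and 8 lower. OAS3 fell from 40.0, 34.2 and 34.8 CPM to 15.5, 13.9 and 11.9 CPM, and HERC5 rose from 2.68, 2.16 and 4.41 CPM to 10.6, 9.46 and 10.2 CPM. IFIT1 (-2.60) did not exceed 2.54 CPM in any library.

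Of 25 Polycomb genes, 7 were higher and 9 lower, and 13 were higher when libraries were scaled by their totals or upper quartiles. The target of tazemetostat, EZH2, fell from 34.1, 37.5 and 34.2 CPM to 22.8, 23.1 and 22.5 CPM, and its partners EED (-0.48), SUZ12 (-0.30) and RBBP7 (-0.83) fell as well. The paralog EZH1 rose from 19.6, 17.9 and 19.6 CPM to 31.5, 31.5 and 36.7 CPM, and PHF1, an accessory subunit, rose by 0.94. Of 24 neuronal and neuroendocrine markers, 15 were too low to test, REST (0.42) and DDC (0.47) were higher and NTS (-1.10) was lower. Of the 12 luminal markers, 8 were higher and 3 lower, namely HOXB13 (-0.63), KRT8 (-0.48) and CDH1 (-0.23).

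**Figure D4:**
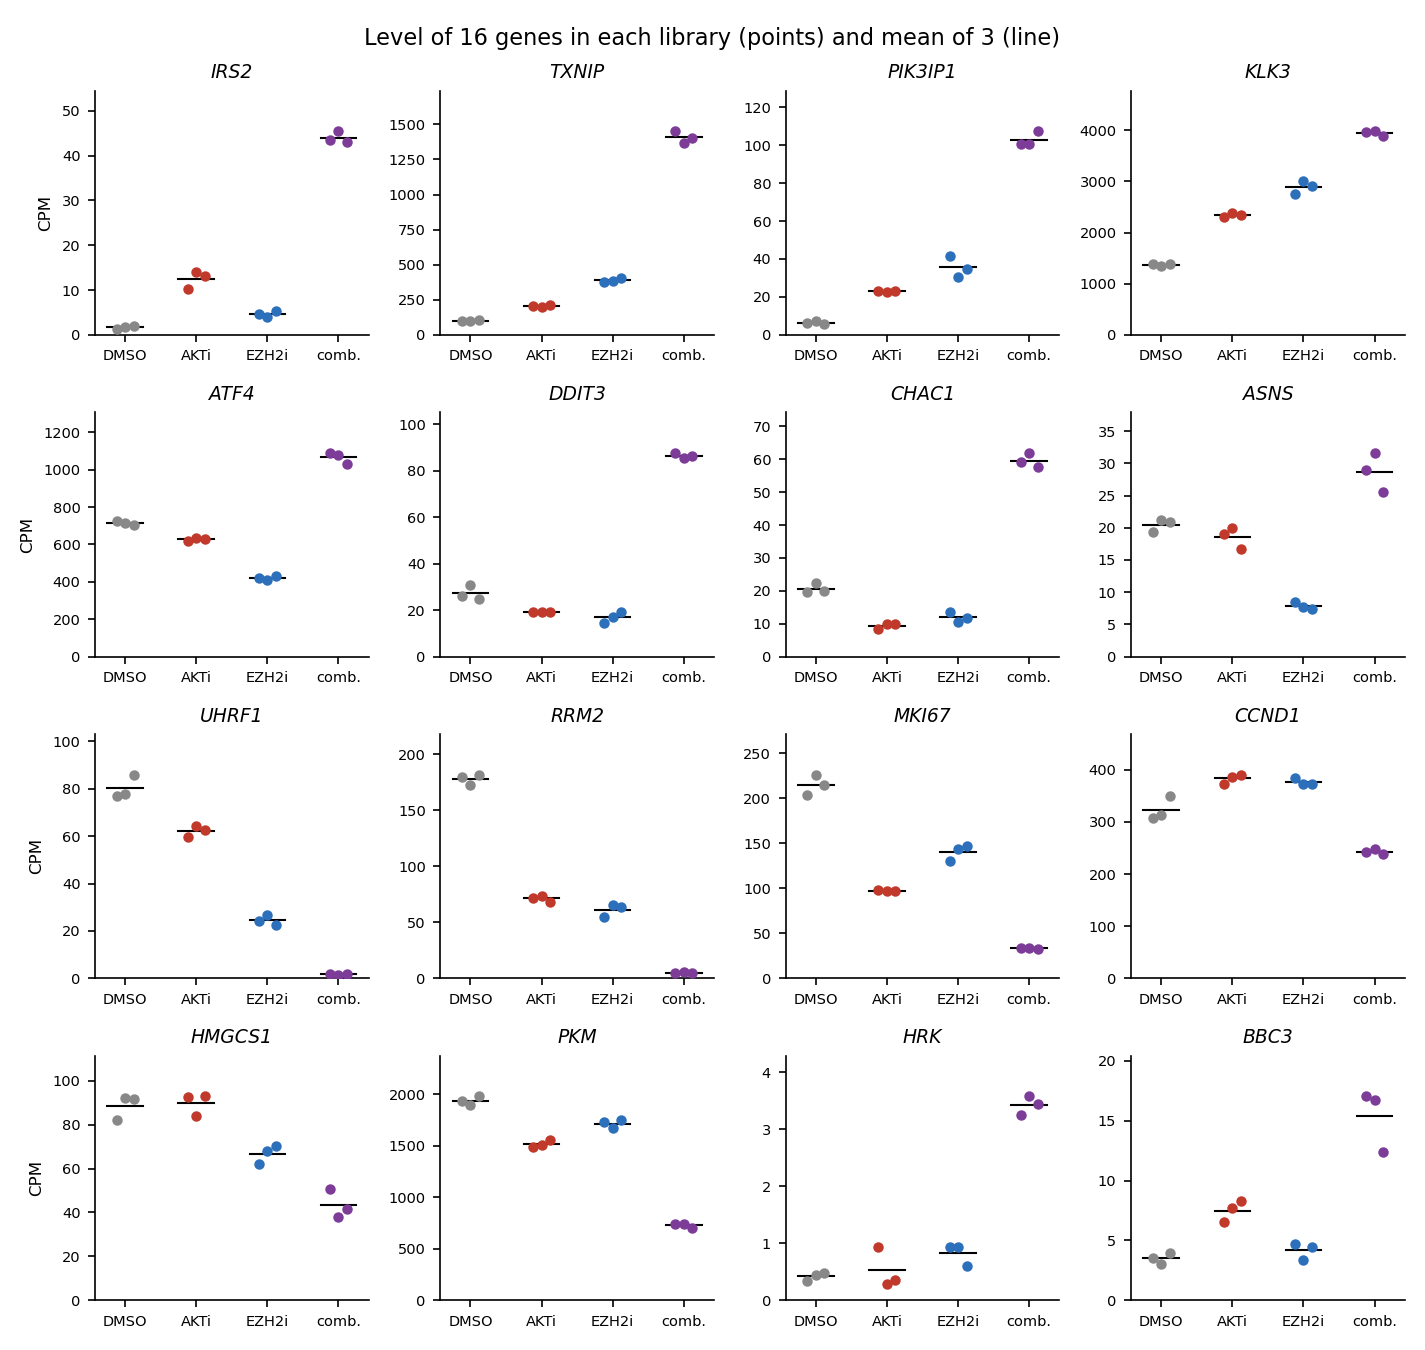
Level of 16 genes in CPM (vertical axes, from 0) in each of the 12 libraries (points) with the mean of 3 (line) for DMSO, AKTi, EZH2i and combination. The combination libraries of IRS2 and TXNIP lie above all others, those of UHRF1, RRM2 and MKI67 below all others, and ATF4, DDIT3, CHAC1 and ASNS are lower in EZH2i than in DMSO and highest in the combination.

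The same inhibitor was also given to cells without tazemetostat, which shows how far the effects above depended on it. In AKTi against DMSO, 7102 genes (42.7%) were called, with 3447 higher (20.7%) and 3655 lower (22.0%). Of the genes that ipatasertib raised in tazemetostat-treated cells, 45.0% were also raised by it alone, 7.86% were lowered and 47.1% were not called. Of the genes that it lowered, 53.4% were also lowered alone, 8.91% were raised and 37.7% were not called. Across genes, the 2 log2 fold changes had a Pearson r of 0.42, and of 0.57 over the 12857 genes with a mean log2 CPM of at least 1. These genes share libraries and are not independent. The difference of the effects, tested as an interaction, was called for 4741 genes (28.5%), with 1802 positive (10.8%) and 2939 negative (17.7%). A gene called in 1 setting only need not differ between the settings. Of genes called with tazemetostat but not without it, the interaction was called for 672 of 1665 raised and 864 of 1613 lowered. It was also called for 422 of 1592 genes raised in both settings and 706 of 2281 lowered in both.

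**Figure D5:**
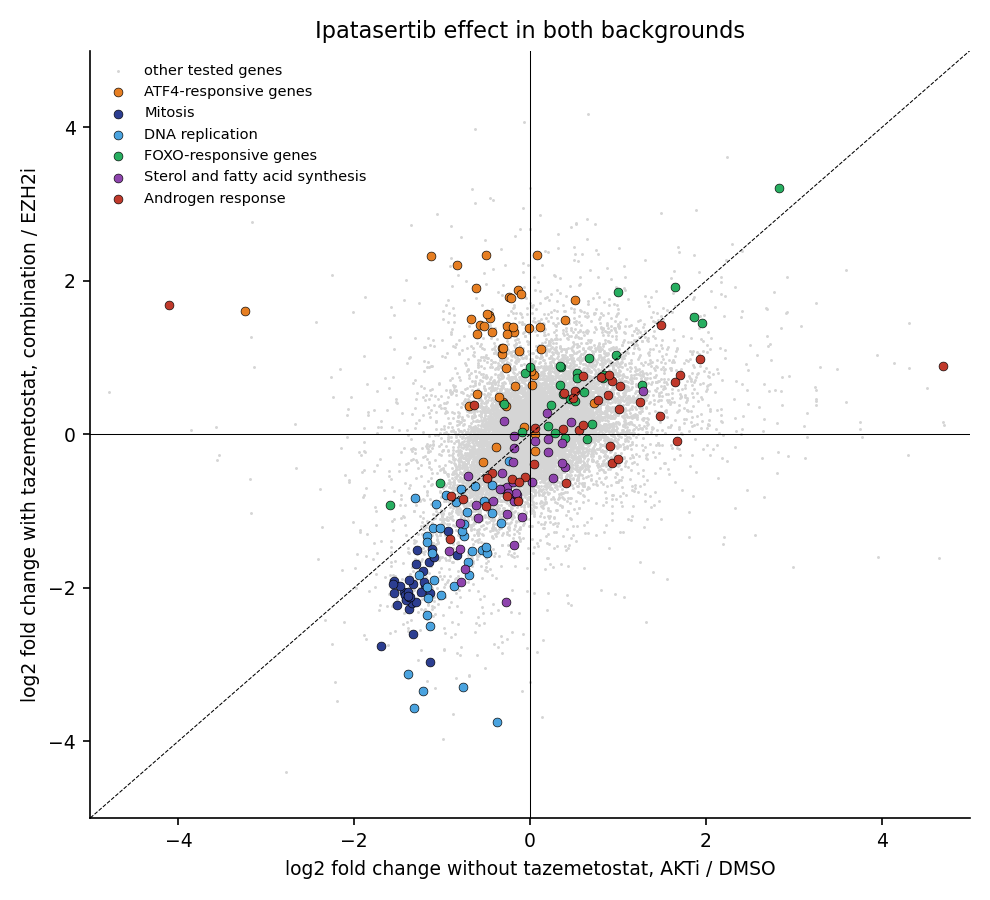
Log2 fold change after ipatasertib with tazemetostat (vertical axis) against that without it (horizontal axis) for the 16646 tested genes, with members of 6 lists colored and equality dashed. ATF4-responsive genes lie in the upper left, where the effects oppose, and DNA replication and mitosis genes in the lower left, mostly under the dashed line. The isolated points at the far left and right, such as FGF21 and NR3C1, rest on very few counts without tazemetostat.

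Ipatasertib moved the ATF4 program in opposite directions in the 2 settings. Without tazemetostat it lowered 32 of the 47 genes and raised 2, with a median of -0.27, and the interaction was positive for 41 and negative for 1, with a median of 1.43. CHAC1 averaged 20.7 CPM in DMSO, 9.43 CPM in AKTi and 11.9 CPM in EZH2i, and 59.6 CPM in the combination. TRIB3 averaged 228 CPM in DMSO and 128 CPM in AKTi. ATF4 itself averaged 714 CPM in DMSO and 627 CPM in AKTi. For each of these 3 genes the mean in EZH2i lay below that in DMSO. Of the 6 genes with the most positive interaction among those called in opposite directions, 4 belong to this list, namely CHAC1 (3.46), TRIB3 (3.03), DDIT3 (2.84) and SLC7A11 (2.52). The other two of the 6 were FAM129A (2.46), which encodes the stress-induced protein Niban, and IFRD1 (2.37).

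Proliferation genes fell in both settings and further with tazemetostat. AKTi alone lowered all 39 replication genes (median -0.85) and all 32 mitotic genes (median -1.34), and the interaction was negative for 27 and 30 of them, with 1 replication gene positive. MKI67 averaged 215 CPM in DMSO and 97.3 CPM in AKTi. UHRF1 averaged 80.3 CPM in DMSO and 62.2 CPM in AKTi, and its interaction was -3.38 ± 0.15 (SE, edgeR adjusted p = 1.33e-25).

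In sterol and fatty acid synthesis, AKTi alone lowered 23 of 38 genes and raised 8, with a median of -0.19, and the interaction was negative for 29 and positive for 1. INSIG1 had a log2 fold change of -0.18 in AKTi against DMSO, compared with -1.44 in tazemetostat. SREBF2 rose with AKTi alone (0.40) and fell with tazemetostat present (-0.43). For glycolysis the interaction was negative for 17 of 30 genes and for the TCA cycle for 17 of 27, and for the nuclear respiratory chain it was negative for 29 of 73, while AKTi alone lowered 43 of the 73.

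FOXO-responsive genes rose in both settings. AKTi alone raised 22 of 32 FOXO-responsive genes and lowered 2, with a median of 0.48, and the interaction was positive for 7 and negative for 6. IRS2 averaged 1.73 CPM in DMSO and 12.5 CPM in AKTi, a log2 fold change of 2.84, and its interaction of 0.37 ± 0.23 (SE) was not called. TXNIP averaged 102 CPM in DMSO and 205 CPM in AKTi, and its interaction was 0.86. The cell cycle inhibitors CDKN1A and CDKN1B differed, since AKTi alone lowered both (-0.76 and -0.30) and their interactions were 1.15 and 0.69.

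For many androgen-responsive genes the log2 fold change after ipatasertib was lower in tazemetostat than without it. AKTi alone raised 25 of 41 and lowered 7, with a median of 0.56, and the interaction was negative for 23 and positive for 2. TMPRSS2 averaged 54.1 CPM in DMSO and 177 CPM in AKTi, with an interaction of -0.94. For KLK2 (interaction -0.06) and ACPP (-0.07) the interaction was not called. The mRNAs of mitochondrial DNA were higher with AKTi alone in 8 of 13 cases, and the interaction was negative for 3.

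Among genes called in opposite directions with a called interaction there were 626 that are protein-coding and had a mean log2 CPM of at least 1. The 6 with the most negative interaction, which ipatasertib raised alone and lowered in tazemetostat, were GJB1 (-2.50), KIF21B (-2.10), LRRTM4 (-1.98), ABCB11 (-1.95), CAMK2B (-1.94) and NWD1 (-1.92). None averaged more than 7.02 CPM in DMSO or AKTi. LRRTM4, which encodes a synaptic adhesion protein, averaged 0.960 CPM in DMSO and 2.16 CPM in AKTi, and gave 13.5, 14.1 and 16.2 CPM in EZH2i and 9.53, 8.01 and 8.40 CPM in the combination. CAMK2B averaged 2.18 CPM in DMSO, 5.30 CPM in AKTi, 6.32 CPM in EZH2i and 4.03 CPM in the combination.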

How the data were processed

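RNA was extracted with a Qiagen kit, and polyA libraries were sequenced. The deposited counts are whole reads per gene for 58735 genes, which the authors made from reads before any normalization. The submitters' processing notes name STAR, HTSeq, DESeq2 and hg38, with versions not given in the sources used here, and whether strand was used in counting is likewise not given. A second deposited table of normalized values was not used. The table's gene length column, as deposited, was not used for any test.

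Counts were analyzed in R 4.3.3 with edgeR 4.0.16 (limma 3.58.1). Genes were kept by filterByExpr (minimum count 10, minimum total 15), libraries were scaled by TMM, and 1 model was fitted to all 12 libraries by the robust quasi-likelihood method, with Benjamini-Hochberg adjustment over all tested genes at 0.05. Contrasts were the combination minus EZH2i, AKTi minus DMSO, and their difference (the interaction). CPM values of single genes are scaled by TMM, and sums over markers use the library totals. DESeq2 1.42.0 was an alternative, as were other scalings, filters, a replicate block and leaving out libraries. The edgeR and DESeq2 fits of the combination against EZH2i were tried on simulated counts with far fewer changed genes than were called here. The other contrasts were not tried that way. Tables, motifs and figures were made with Python 3.11.15, pandas 2.3.3, NumPy 2.4.6 and matplotlib 3.10.9. Totals per library bound the precision of low genes only as far as counting error goes.

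Named genes were protein-coding genes with a call, a mean log2 CPM of at least 1 and no overlap between the 3 combination and 3 EZH2i libraries: the 10 largest and 10 smallest log2 fold changes, and the 5 largest gains and losses of mean CPM. To these were added the 6 largest and 6 smallest interactions among protein-coding genes called in opposite directions in both settings. Of each gene list, the drug targets, the called members with the largest change and members against the majority were named, and further members were chosen for their known role after their values were seen. The members and lists were chosen with earlier results of these data known, so no test was run over a list.

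Promoter windows were taken from RefSeq (GRCh38.p14) for 10676 of 13083 tested protein-coding genes, 322 of them by a synonym, and searched on both strands. Shares are descriptions of the letters only. The study's methods name sequencing at a core facility or at Novogene, and the site of each library was not assigned here. Values of some genes are not reported here.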

Additional observations from a re-analysis of the deposited data

Results flagged for a closer look

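The genes below are those named by rule for which the effect of ipatasertib differed between cells with and without tazemetostat by edgeR's test of the interaction (Benjamini-Hochberg adjusted p under 0.05). They were chosen by their change with tazemetostat, which enters the interaction, or by a called interaction itself, so their number is not a result. The values below are log2 differences of the effects, with tazemetostat minus without. The genes that fell most with tazemetostat present had negative values, namely UHRF1 (-3.38), RRM2 (-2.24), MCM10 (-2.13), E2F8 (-2.22), CLSPN (-2.53), ESCO2 (-1.80), DTL (-2.45), FAM111B (-2.44), CDC45 (-1.75) and MYBL2 (-1.83). The abundant genes that fell were ACTB (-0.74), GAPDH (-0.61), PKM (-0.88), HSP90AA1 (-0.40) and HSP90AB1 (-0.37). Positive values were found for LAMP3 (3.85), SHISA2 (3.51), CHAC1 (3.46), TRIB3 (3.03), DDIT3 (2.84), SLC7A11 (2.52), FAM129A (2.46), IFRD1 (2.37), SLC6A9 (2.26), DMGDH (2.22), DUSP27 (1.65), ATF4 (1.53), MOV10L1 (1.41), NUPR1 (1.24) and TXNIP (0.86). FN1 (-0.31) and KLK3 (-0.32) rose in both settings with a negative difference. The genes raised alone and lowered in tazemetostat were GJB1 (-2.50), KIF21B (-2.10), LRRTM4 (-1.98), ABCB11 (-1.95), CAMK2B (-1.94) and NWD1 (-1.92).

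SHISA2 averaged 0.104 CPM in DMSO and 0.166 CPM in AKTi, so its difference rests on few counts without tazemetostat. With 3 libraries per arm, no test for outlier libraries was run, and all 12 entered the main fit. As a measure of spread between 2 libraries of an arm, the chi-square per gene was computed. It was 6.84 (A and B), 6.39 (A and C) and 4.72 (B and C) in EZH2i, and 3.34 to 4.14 in the combination. Results with each library left out in turn are given below.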

How the results depend on the processing

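The number of genes called between the combination and EZH2i was 7498 by DESeq2, 7788 with library size scaling, 7787 with upper-quartile scaling, 7204 of 34381 with genes of at least 1 count kept, 7216 of 13359 with at least 10 counts required in every library, and 7663 of 16291 from the 6 libraries compared alone. The share called higher was 45.3%, and was 52.6% under library size and 54.6% under upper-quartile scaling, which moved the median of all genes to 0.04 and 0.06. Leaving out each of the 12 libraries in turn gave 6983 to 7956 calls. The counts of calls for AKTi against DMSO and for the interaction also stayed within 1.5 times under each alternative run. Fitting the interaction on 6 libraries was not possible because it needs all 12. Of 706 named and listed genes, 1 to 25 lost their call and 1 to 22 gained 1 under a given alternative, and none reversed.

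What the replicate letters mark is not given in the sources used, and the main fit did not use them. Same-letter correlations of the deviations from the arm means were -0.07, -0.11 and -0.02 for combination and EZH2i libraries. For the other pairs of arms they ran from -0.06 to 0.14. Deviations within an arm cancel out, so these values cannot show whether the letters pair the samples. With the letter as a replicate block, 7741 genes were called between the combination and EZH2i, 7062 between AKTi and DMSO and 4681 for the interaction, and of the 706 genes 1 lost its call and 5 gained 1, namely EPHA2, MT-ND1, MT-ND5, MT-CO1 and CDKN2A.

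Some small list counts moved by over 1.5 times. The members of the Polycomb list called higher were 7, and 13 under either of the other scalings, and the PI3K receptors and adaptors called lower were 5, and 2 without combination replicate B.

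Genes near 1 CPM, such as FGF21, lie at the limit of what this depth resolves.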
